A study of Mus musculus with 6 samples.

Results

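The salivary and mucosal innate defence genes examined here are a list of 9, Lcn2, Lpo, Duox1, Duox2, Ltf, Pigr, Slpi, Wfdc2 and Bpifa2. They were chosen by name, with earlier results of these data known. Of the 9, 7 had a probe set in the platform annotation among the 19505 genes measured. Each of the 7 was read by 1 probe set, and no probe set is paired with Duox2 or Slpi, which were not analysed here. RNA came from whole submandibular glands of BALB/c female mice that had both ovaries removed (OVX, n = 3) or a sham operation (Cont, n = 3) at 6 weeks of age. Glands of both groups were collected 8 weeks later, at 14 weeks of age, and each was hybridised to its own Clariom S mouse array, a one-colour array where several probes per transcript are combined into a probe set.

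Saliva protects the mouth and the gland itself with proteins that are made by the epithelium and stored or released into the lumen. Lactoperoxidase (Lpo) uses hydrogen peroxide from the dual oxidases (Duox1, Duox2) to turn thiocyanate into an antimicrobial oxidant, lipocalin 2 (Lcn2) and lactotransferrin (Ltf) withhold iron from microbes, and the polymeric immunoglobulin receptor (Pigr) carries secretory IgA across the epithelium. Slpi and Wfdc2 are small secreted proteins of the whey acidic protein family, of which Slpi inhibits neutrophil proteases, and Bpifa2, the parotid secretory protein, belongs to the family of the bactericidal permeability-increasing (BPI) protein.

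Promoter windows are shown for Lcn2, Lpo and Bpifa2, the 3 genes with the smallest p in the comparison of OVX with Cont. RefSeq windows (GRCm38.p6) run from 250 bases before to 50 bases after the annotated start and were matched for all 9 genes, of which 7 were measured. Capitals mark matches, on either strand, to 6 motifs, which are TATAAA, TTGCNNAA of C/EBP factors, TTCNNNGAA of STAT factors, the NF-kappaB consensus, the palindromic oestrogen response element and ACANNNTGT of androgen and glucocorticoid receptors.
Lcn2, chr2:32387690-32387989, minus strand: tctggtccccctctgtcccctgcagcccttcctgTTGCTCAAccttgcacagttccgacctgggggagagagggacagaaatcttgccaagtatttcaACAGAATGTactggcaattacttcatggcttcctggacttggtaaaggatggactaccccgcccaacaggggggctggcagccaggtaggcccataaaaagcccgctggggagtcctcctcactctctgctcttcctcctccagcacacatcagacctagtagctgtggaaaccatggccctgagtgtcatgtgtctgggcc
Lpo, chr11:87826065-87826364, minus strand: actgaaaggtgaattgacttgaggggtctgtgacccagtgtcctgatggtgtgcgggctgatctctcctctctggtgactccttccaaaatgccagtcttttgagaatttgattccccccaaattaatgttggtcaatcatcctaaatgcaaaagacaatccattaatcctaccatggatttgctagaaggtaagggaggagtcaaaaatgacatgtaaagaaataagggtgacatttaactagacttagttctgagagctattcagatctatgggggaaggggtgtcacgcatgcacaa
Bpifa2, chr2:154008026-154008325, plus strand: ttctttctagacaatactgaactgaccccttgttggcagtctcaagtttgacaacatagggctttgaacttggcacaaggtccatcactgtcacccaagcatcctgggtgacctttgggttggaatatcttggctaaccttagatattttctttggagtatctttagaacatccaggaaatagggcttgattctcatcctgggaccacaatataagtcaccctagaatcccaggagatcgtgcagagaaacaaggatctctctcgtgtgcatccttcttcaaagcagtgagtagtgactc
The Lcn2 window held the C/EBP letters at positions −216 to −209 and the androgen and glucocorticoid receptor letters at −152 to −144 from the start, and the windows of Lpo and Bpifa2 held none of the 6. The same C/EBP letters occurred in 10.8% and the same receptor letters in 6.85% of all 32851 promoter windows of this length. The C/EBP letters were also found in the windows of Ltf, at −75 to −68, and Slpi, at −241 to −234. The window of Pigr held the receptor letters at −187 to −179 and the STAT letters, found in 8.3% of all windows, at 40 to 48. A match of letters is not evidence of binding.

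The deposited values are log2 intensities, and array medians lay between 5.20 and 5.22. They carry no detection calls, so the lower quartile of each array, between 3.77 and 3.86, served as a mark of dim signal. Cont 2 was the lowest Cont array in all 13 measured genes of the granular convoluted tubules, the duct segment that stores kallikreins and growth factors. Genes of secretory cells identified the tissue on all 6 arrays, with the acinar product Prol1 averaging 12.91 ± 0.04 in OVX and 12.97 ± 0.06 in Cont glands (SD, n = 3 each). On the first principal component, which held 45.1% of the variance, OVX arrays lay between 22.0 and 23.6 and the Cont arrays between −26.7 and −19.0.

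Among the 7 measured defence genes, Lcn2 was higher and Lpo was lower in OVX glands at a limma adjusted p under 0.05, and the other 5 did not pass. Over all genes, 3.63% passed that threshold, 2.57% higher and 1.07% lower. All OVX arrays lay above all Cont arrays for Lcn2, Bpifa2 and Duox1 and below them for Lpo, while 21.4% of all genes had groups that did not overlap, 10.7% with OVX above and 10.6% with OVX below. The median log2 change (OVX minus Cont, as throughout) was 0.23 over the 7 genes and −0.02 over all genes. In RNA of whole glands, fewer cells of a type and less RNA per cell cannot be told apart.

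**Figure D1:**
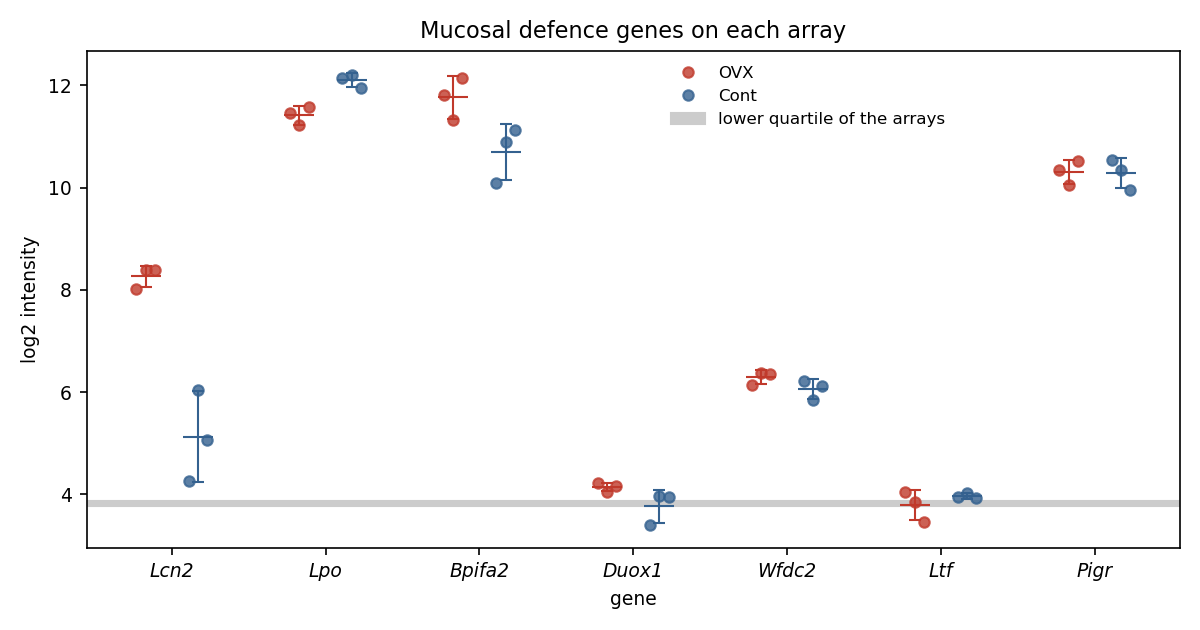
Log2 intensity (y axis) of the 7 measured defence genes (x axis) on each of the 3 OVX arrays (red) and 3 Cont arrays (blue), with the group mean (horizontal tick) and SD (bars) and the lower quartile of the arrays as a grey band. Lcn2 lies between 8.02 and 8.39 in OVX and between 4.27 and 6.04 in Cont glands, Lpo is lower in OVX, and Duox1 and Ltf lie close to the grey band.

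Lcn2, which binds the siderophores that bacteria secrete to take up iron, showed the largest change of these genes. Its log2 intensity was 8.02, 8.39 and 8.38 on the OVX arrays and 4.27, 6.04 and 5.07 on the Cont arrays. The groups did not overlap, and the Cont mice differed from each other by more than the OVX mice, with an SD of 0.89 against 0.21 in OVX. Lcn2 averaged 8.26 in OVX and 5.13 in Cont glands, which is 3.14 higher on the log2 scale (standard error of the fit, SE, 0.34, limma adjusted p = 0.000358) or an 8.80-fold higher signal. This was the 10th largest rise among 19505 genes. With each array left out in turn, the call held in 6 of 6 fits, with changes from 2.71 without Cont replicate 1 to 3.60 without Cont replicate 2. After Benjamini-Hochberg adjustment of the methods' t-test, which estimates the variance of each gene alone, the adjusted p was 0.140 (unadjusted p = 0.00405).

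Lactotransferrin, the secreted iron-binding protein of exocrine glands and neutrophils, did not pass. Ltf read 4.03, 3.85 and 3.46 in OVX and 3.94, 4.03 and 3.93 in Cont glands. These values overlap and lie near the lower quartile of the arrays, and without detection calls a faint transcript and background look alike. Its log2 change was −0.18 (95% interval −0.54 to 0.17, limma adjusted p = 0.637), and it was −0.31 without OVX replicate 1 and −0.02 without OVX replicate 3. The change of Lcn2 exceeded that of Ltf by 3.32 on the log2 scale, with a two-sided exact permutation p of 0.1, the smallest that 3 against 3 arrays allow. With Ltf near background, this value does not measure how far the changes of the transcripts differed.

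Of 21 measured genes of iron and siderophore withholding, 0 passed limma's adjusted p, and their median log2 change was 0.05. At an unadjusted p under 0.05, limma found 2 higher, while the methods' t-test found 1 higher and 1 lower. Over all genes that threshold was met as higher by 8.24% and as lower by 7.59% in limma, and by 7.25% and 6.38% in the methods' t-test. The transferrin receptor Tfrc, which imports iron into cells, had the smallest p of the list, and differed by 0.55 on the log2 scale (SE 0.20, limma adjusted p = 0.198). The lipoprotein receptor Lrp1 followed with 0.42 (SE 0.16, limma adjusted p = 0.205). The lipocalin receptor Slc22a17 averaged 6.96 ± 0.19 in OVX and 7.27 ± 0.15 in Cont glands (SD, n = 3 each), and its adjusted p was 0.345 by limma. Among 9 measured Lcn genes, Lcn2 alone passed, and 4 of the 9 lay under the lower quartile on all 6 arrays.

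Lpo, the peroxidase that serous acinar cells secrete into saliva, was lower in OVX glands. It read 11.46, 11.22 and 11.57 on the OVX arrays and 12.15, 12.20 and 11.95 on the Cont arrays. Every OVX array lay below every Cont array, within a transcript that gave a strong signal in all mice. The difference was −0.68 on the log2 scale (SE 0.15, limma adjusted p = 0.0271), a 1.61-fold lower signal in OVX. Lpo is a row label in the study's heat map of top-ranked seromucous acinar genes, drawn from these same arrays, so its direction is not independent evidence. With each array left out in turn, Lpo passed in 2 of 6 fits, and the call was lost when OVX 1 (limma adjusted p = 0.0873), OVX 2 (0.0991), Cont 1 (0.0841) or Cont 2 (0.0985) was removed. After quantile normalization between arrays its change was −1.07 (limma adjusted p = 0.00118), and over all alternative fits its adjusted p ranged from 0.000781 to 0.160.

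Duox1, a membrane oxidase that releases hydrogen peroxide, gave a dim signal. It read 4.21, 4.05 and 4.15 in OVX and 3.39, 3.97 and 3.94 in Cont glands, with Cont 1 below the lower quartile of its array. The OVX arrays lay above the Cont arrays by a narrow margin. The log2 change was 0.37 (95% interval −0.0033 to 0.75, limma adjusted p = 0.320), and it was 0.18 without Cont replicate 1. Duoxa2, the maturation factor of Duox2, averaged 6.89 ± 0.09 in OVX and 6.70 ± 0.17 in Cont glands (SD, n = 3 each), with an adjusted p of 0.552 by limma. For Duox2 itself, the study reported more transcript in OVX glands by quantitative PCR, a result that was not examined here.

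Of 16 measured genes of the peroxidase system outside the 9, limma called 1 higher and none lower, and the median was 0.08. The gene that rose was Cftr, an anion channel of duct cells that also conducts thiocyanate, with 7.27, 7.23 and 7.46 in OVX and 6.54, 6.48 and 6.05 in Cont glands (log2 change 0.96, SE 0.16, limma adjusted p = 0.00649). Cftr is also counted among the duct markers. The myeloperoxidase gene Mpo, a neutrophil peroxidase, had a log2 change of 0.02 (limma adjusted p = 0.956), and the eosinophil peroxidase gene Epx one of 0.23 (limma adjusted p = 0.641).

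Bpifa2, which mouse salivary glands secrete in abundance, had a higher mean in OVX glands without passing the adjusted threshold. It read 11.82, 11.32 and 12.15 on the OVX arrays and 10.09, 10.89 and 11.14 on the Cont arrays. The groups did not overlap, but OVX 2 and Cont 3 were close together. The difference was 1.06 on the log2 scale (SE 0.27, 95% interval 0.47 to 1.65, limma adjusted p = 0.0583). It passed without Cont replicate 3 (limma adjusted p = 0.0382), and leaving out the other arrays gave an adjusted p from 0.0529 to 0.199. After quantile normalization between arrays its change was smaller, 0.71 (limma adjusted p = 0.247). The trend and robust options of limma gave an adjusted p of 0.155. The study's own rule asks for a 1.5-fold difference and an unadjusted p up to 0.05 in the methods' t-test, which Bpifa2 did not pass. Lcn2 met that rule as higher and Lpo as lower, as did 2.92% and 1.34% of all genes. With limma's unadjusted p in its place, Bpifa2 passed too, and 3.28% of all genes were higher and 1.71% lower, or 4.99% in all.

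In the BPI fold family outside Bpifa2, 15 genes were measured, of which none was called higher and 1 lower, and the median was −0.06. The lower gene was Bpifb5, with 4.64, 4.31 and 4.68 in OVX and 5.25, 5.22 and 5.27 in Cont glands (log2 change −0.70, SE 0.14, limma adjusted p = 0.0202). Its groups were apart, and its call was lost when any single array other than OVX 3 was removed, which left the list with 0 calls. Bpifa1, a defence protein of airway epithelium, averaged 4.32 ± 0.19 in OVX and 4.32 ± 0.05 in Cont glands (SD, n = 3 each).

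Pigr, which transports dimeric IgA from plasma cells into saliva, did not pass. It read 10.35, 10.05 and 10.51 in OVX and 10.55, 10.35 and 9.96 in Cont glands. The groups overlapped over almost their whole range. The log2 change was 0.02, with a 95% interval from −0.38 to 0.42 (limma adjusted p = 0.980). Of 17 measured genes of antibody transport and the IgA plasma cell axis, 0 passed limma's adjusted p, and at an unadjusted p under 0.05 limma and the methods' t-test each found 1 higher. Their median was −0.0022. The plasma cell receptor Tnfrsf17 differed by 0.31 on the log2 scale (SE 0.14, limma adjusted p = 0.315) and the plasma cell chaperone Mzb1 by 0.43 (SE 0.21, limma adjusted p = 0.348). Jchain, which links IgA into dimers, averaged 8.84 ± 0.46 in OVX and 8.52 ± 0.57 in Cont glands (SD, n = 3 each).

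Wfdc2, a secreted whey acidic protein of ducts and airways, did not pass either. It read 6.15, 6.38 and 6.35 in OVX and 6.22, 5.85 and 6.13 in Cont glands, which overlap. Its log2 change was 0.23 (95% interval −0.10 to 0.55, limma adjusted p = 0.509), and it was 0.12 without Cont replicate 2.

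Among genes of antiprotease families, Serpinb1a and Wfdc12 were higher in OVX glands. Of 31 measured genes of the whey acidic protein family, of other secreted antiproteases and of their neutrophil protease targets, limma called 2 higher and none lower, and the median was 0.02. Serpinb1a, an inhibitor of neutrophil serine proteases, read 9.26, 9.56 and 9.35 in OVX and 7.51, 7.24 and 7.36 in Cont glands (log2 change 2.02, SE 0.14, limma adjusted p = 1.89e-05). Its groups were far apart relative to their spread. Wfdc12 read 12.28, 12.50 and 12.31 in OVX and 10.80, 10.53 and 11.38 in Cont glands (log2 change 1.46, SE 0.20, limma adjusted p = 0.00179). Wfdc12 was the gene that passed among 18 measured Wfdc genes, of which 5 lay under the lower quartile on all 6 arrays, and their median change was 0.03. At an unadjusted p under 0.05, 8 genes of the antiprotease list were higher and 1 was lower, beside 8.24% and 7.59% of all genes. Without Cont replicate 3, the list held 4 calls in place of 2.

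**Figure D2:**
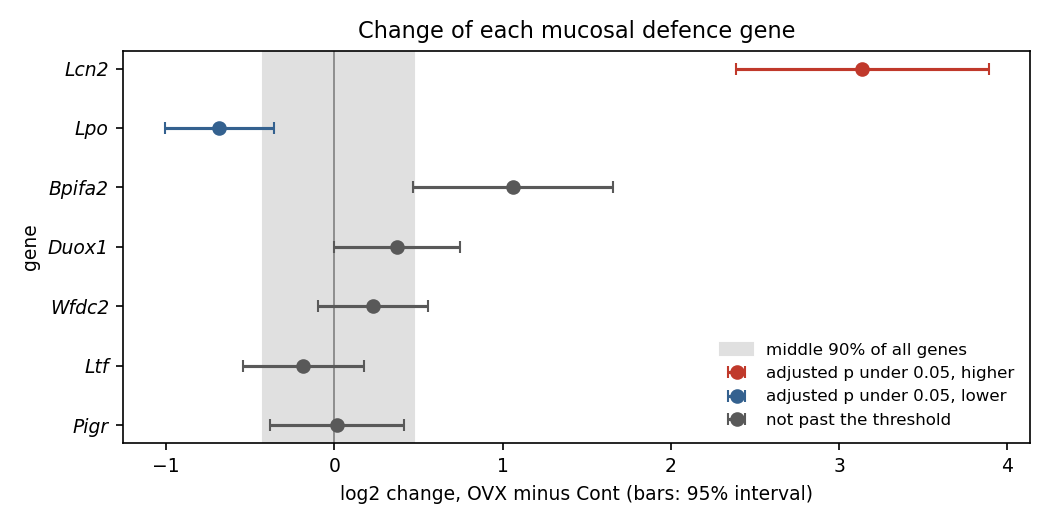
Log2 change, OVX minus Cont (x axis), of each measured defence gene (y axis), with the 95% interval of the limma fit as bars and the middle range of the changes of all genes, from −0.42 to 0.47 (5th to 95th percentile), as a grey area. Lcn2 lies at 3.14 and Lpo at −0.68, both past the adjusted threshold, and the intervals of Duox1, Wfdc2, Ltf and Pigr include 0.

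Of 48 measured genes in a list of other secreted antimicrobial proteins and mucins, limma called 5 higher and 1 lower, and the median was −0.02. Crisp3, a cysteine-rich protein of saliva, read 12.37, 12.49 and 12.35 in OVX and 10.96, 9.85 and 10.97 in Cont glands (log2 change 1.81, limma adjusted p = 0.00239). The mucosal chemokine Cxcl17 rose by 1.13 (limma adjusted p = 0.000866) and the epithelial chemokine Cxcl14 by 0.80 (limma adjusted p = 0.00488). The higher genes also included haptoglobin (Hp), which binds free haemoglobin, with a change of 0.80 (limma adjusted p = 0.0150), and the peptide adrenomedullin (Adm) with 0.65 (limma adjusted p = 0.0470). Dcpp3, a demilune cell and parotid protein, fell by 1.27 (limma adjusted p = 0.0245), to a mean of 3.72 in OVX that lies near the lower quartile, against 4.99 in Cont glands. None of the 7 beta defensin genes of the list passed, with changes from −0.42 to 0.38.

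In a list of receptors, cytokines and transcription factors known to induce epithelial defence genes, 2 receptors rose and 2 transcription factors fell by limma among 53 genes measured, and the median was 0.0042. No cytokine of the list passed. Cd14, the co-receptor for bacterial lipopolysaccharide, read 6.59, 6.76 and 6.71 in OVX and 5.68, 5.90 and 5.35 in Cont glands (log2 change 1.04, limma adjusted p = 0.00367). Tlr1, which senses bacterial lipopeptides together with Tlr2, rose by 0.72 (limma adjusted p = 0.00965). The transcription factor Stat3, which acts downstream of interleukin 6 and 22 receptors, fell by 0.64 (limma adjusted p = 0.0339), and Spdef, a secretory cell factor, by 1.08 (limma adjusted p = 0.00466). Spdef and Dcpp3 are also counted among the acinar markers, and Cd14 among the macrophage markers. The NF-kappaB regulator Nfkbiz, a known inducer of Lcn2 transcription, had a change of 0.06 (limma adjusted p = 0.875), Cebpb one of −0.19 (limma adjusted p = 0.607) and Cebpd one of −0.17 (limma adjusted p = 0.693). Nfkbiz, Cebpb and Cebpd were picked from the list after their values were seen. At an unadjusted p under 0.05, limma found 7 genes of the list higher and 6 lower, beside 8.24% and 7.59% of all genes. Those higher included Nfkb2 with 0.51 (limma adjusted p = 0.205), and those lower Il1b with −0.52 (limma adjusted p = 0.198). The part of any listed gene in the change of Lcn2 was not tested.

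The lists of related genes together held 201 measured genes, of which 10 rose and 4 fell, or 6.97%, beside the 3.63% of all genes. The lists were chosen with earlier results of these data known, and Cftr, Spdef, Dcpp3 and Cd14 are also counted among the duct, acinar or macrophage markers. These shares therefore cannot show whether defence genes changed more often than other genes, which was not tested.

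**Figure D3:**
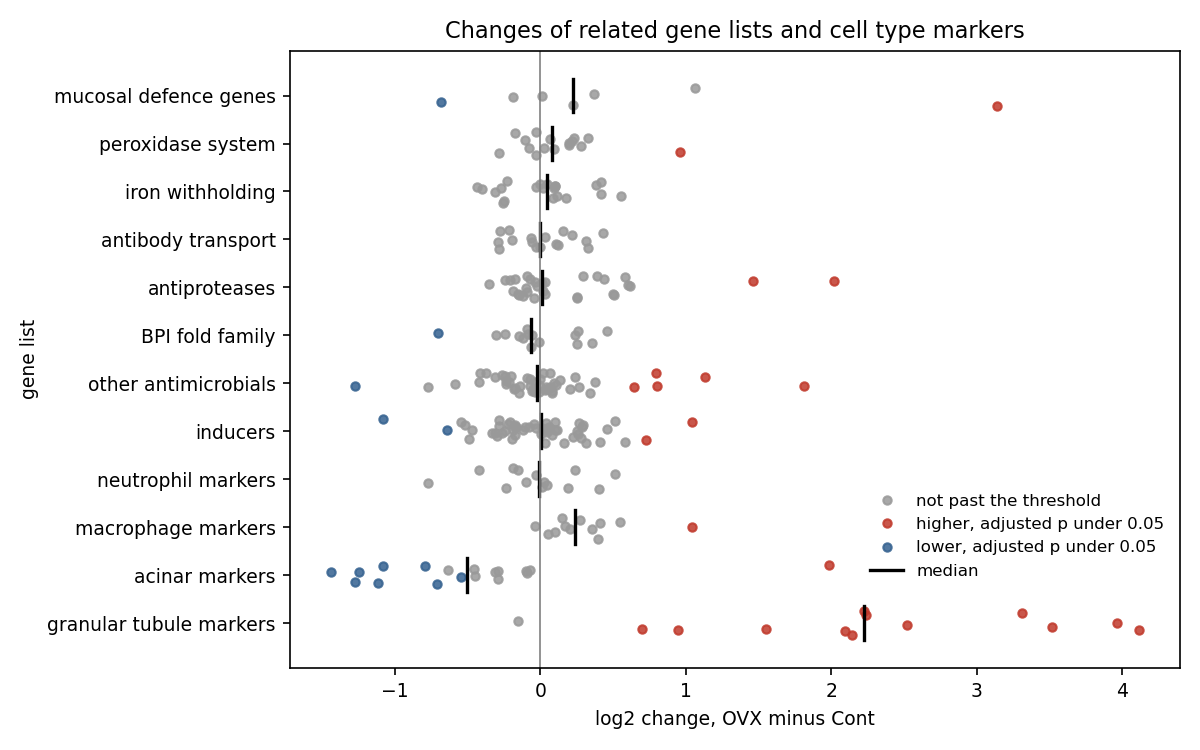
Log2 change, OVX minus Cont (x axis), of every measured gene in the defence lists and in 4 lists of cell type markers (y axis), coloured by the limma call, with the median of each list as a black bar. The medians of the related defence lists lie between −0.06 and 0.08, that of the acinar markers at −0.50 and that of the granular tubule markers at 2.22.

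Markers of gland cells moved with the group. Of 18 measured acinar markers 8 fell and 1, Amy1, rose, with a median of −0.50, and the log2 of their summed signal lay between 14.77 and 14.80 in OVX and between 14.94 and 15.05 in Cont glands. That sum mostly reflects Prol1, Mucl2 and Pip, which did not pass and lie near the largest deposited value, 13.06. It therefore says little about the 8 markers that fell. Of 13 measured granular tubule markers 12 rose, with a median of 2.22, and their summed signal lay between 16.12 and 16.15 in OVX and between 14.28 and 14.89 in Cont glands. The remaining gene, Klk1, had a change of −0.15 (limma adjusted p = 0.616). In OVX glands Klk1b5, Klk1b11 and Klk1b22 averaged 12.80, 12.85 and 12.86, also near the largest deposited value. None of the acinar and tubule markers was under the lower quartile of all arrays except Smr3a on the acinar list. Of 17 other duct markers, 6 rose and none fell, with a summed signal between 12.12 and 12.16 in OVX and between 11.74 and 11.92 in Cont glands. The part of these shifts in the changes of Lpo and Lcn2 was not tested. Within the Cont group, Lcn2 was highest on Cont 2, the array on which all 13 tubule genes, most of them kallikreins, were lowest. That is the order on 1 mouse, and a link between the tubule genes and Lcn2 was not tested.

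Of 14 measured neutrophil markers, which include Ltf and Mpo, 0 passed limma's adjusted p, with 2 higher and 2 lower at an unadjusted p under 0.05, against 2 higher by the methods' t-test. Over all genes, 8.24% were higher and 7.59% lower at that unadjusted p in limma, and 7.25% and 6.38% in the methods' t-test. The summed signal of the neutrophil markers lay between 7.81 and 7.93 in OVX and between 7.80 and 7.99 in Cont glands. In limma, the 2 higher were Mmp9, with a log2 change of 0.51 (limma adjusted p = 0.139), and Cxcr2 with 0.41 (limma adjusted p = 0.185). The 2 lower were S100a9 with −0.77 (limma adjusted p = 0.107) and Camp with −0.42 (limma adjusted p = 0.296). S100a9 averaged 3.91 ± 0.37 in OVX and 4.69 ± 0.42 in Cont glands (SD, n = 3 each). The granule protein Ngp and the calgranulin S100a8 were under the lower quartile on all 6 arrays. Of 12 macrophage markers, Cd14 alone passed, 3 were higher and 0 lower at an unadjusted p under 0.05, the median was 0.24, and the summed signal lay between 9.61 and 10.07 in OVX and between 9.36 and 9.76 in Cont glands. Of 11 lymphocyte markers 0 passed, with 2 lower at an unadjusted p under 0.05 by limma and 2 by the methods' test on each gene, and of 11 plasma cell markers 0 passed limma's adjusted p, with 1 higher at that p in either test. Of 7 adipocyte markers 0 passed, 3 were lower at an unadjusted p under 0.05 in limma, beside 7.59% of all genes, and 0 in the methods' t-test, and their summed signal lay between 7.62 and 8.22 in OVX and between 8.36 and 9.09 in Cont glands.

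Bpifa2 is also a product of the parotid and sublingual glands, so markers of these glands were read beside it. Of 5 measured, 1 rose, the amylase gene Amy1, with 7.78, 7.60 and 7.04 in OVX and 6.14, 5.24 and 5.08 in Cont glands (log2 change 1.99, SE 0.27, limma adjusted p = 0.00173). The proline-rich protein genes Prh1 and Prpmp5 had changes of −0.26 each (limma adjusted p = 0.422 and 0.677), and Bpifb2 one of −0.30 (limma adjusted p = 0.382). The summed signal of the list lay between 7.94 and 8.42 in OVX and between 7.44 and 7.78 in Cont glands, and its part in the Bpifa2 values was not tested.

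The genes with profiles most like Lcn2, Lpo and Bpifa2 were sought among 13799 genes above the lower quartile on every array, by the root mean square difference of the log2 profiles over the 6 arrays after each gene's mean was subtracted. For Lcn2, 2310057J18Rik was closest, with a difference of 0.22, and read 11.97, 12.05 and 11.91 in OVX and 8.45, 10.11 and 8.96 in Cont glands. It shared the order of the Cont arrays with Lcn2, lowest on Cont 1 and highest on Cont 2. The matricellular protein gene Thbs1 and the growth factor gene Tgfb2 followed at 0.53 and 0.61, with changes of 2.77 and 2.93 and little spread within Cont (SD 0.04 and 0.10). For Lpo, the closest were the alcohol dehydrogenase Adh1 at 0.04, Uaca at 0.04 and the fructose transporter Slc2a5 at 0.05, with changes of −0.76, −0.65 and −0.68. For Bpifa2, the closest were 1600014C10Rik at 0.24, the aldehyde dehydrogenase Aldh1a7 at 0.25 and transthyretin (Ttr) at 0.27, with changes of 1.25, 0.82 and 1.37. The differences for Lpo were smaller than those for Lcn2 and Bpifa2, whose own profiles spread over a wider range.

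**Figure D4:**
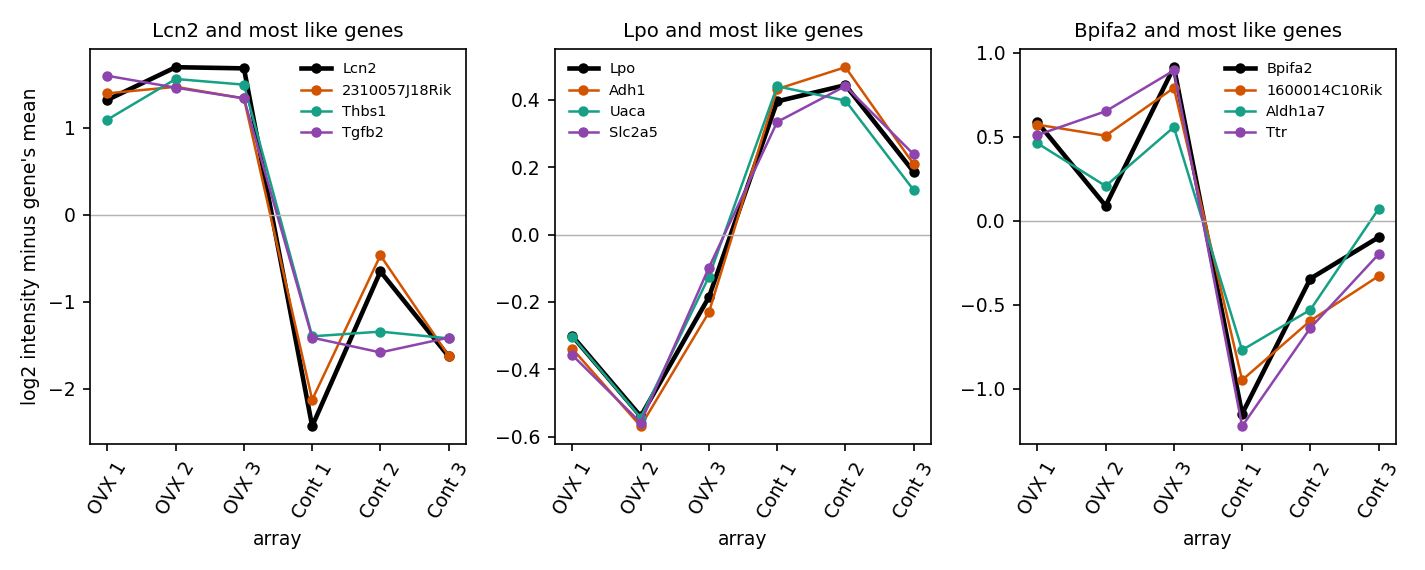
Log2 intensity minus each gene's mean over the 6 arrays (y axis) on the 3 OVX and 3 Cont arrays (x axis), for Lcn2, Lpo and Bpifa2 (black) and the 3 genes most like each, with lines that join the values of a gene and carry no order. 2310057J18Rik follows Lcn2 on Cont 1, Cont 2 and Cont 3, whereas Thbs1 and Tgfb2 stay level across them.

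Genes beside the 7 measured defence genes on the chromosomes were also read, a choice made after the members' values were seen. Within 3 protein-coding genes on either side in the RefSeq order (GRCm38.p6), 38 further genes were measured, with a median log2 change of −0.08. Limma called 1 of them higher and 1 lower, beside 2.57% and 1.07% of all genes. The gene that rose was 1110008P14Rik, next to Lcn2 on chromosome 2, which averaged 8.24 ± 0.25 in OVX and 7.58 ± 0.09 in Cont glands (SD, n = 3 each, limma adjusted p = 0.0447). Ptges2, on the other side of Lcn2, had a change of −0.10 (limma adjusted p = 0.804). The gene that fell was the cytokine gene Il24, near Pigr on chromosome 1, which was under the lower quartile on all 6 arrays. Mpo and Epx lie within 2 genes of Lpo on chromosome 11, and neither passed, with the values given above. The neighbours of Bpifa2 on chromosome 2 were Bpif genes on both sides, with changes from −0.09 to 0.26, none of which passed.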

How the data were processed

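Submandibular gland RNA of 3 OVX and 3 Cont mice was measured on Clariom S arrays. SST-RMA was applied by the authors to all arrays jointly before the log2 values of 22206 probe sets were deposited. RMA and Affymetrix Power Tools appear in the submitters' processing notes, and the release of each was not given in the sources used here. A log2 scale was read from the largest value, 13.06, and the common medians. The annotation gives 1 symbol to 19572 probe sets and none to 2634, which were left out except in 1 alternative. For 55 genes with several probe sets the brightest was used.

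The comparison of OVX with Cont used limma 3.58.1 under R 4.3.3 (lmFit and eBayes, no covariate), with Benjamini-Hochberg adjustment over all named probe sets. The step was tested on simulated data. The 9 genes and the lists were chosen with earlier results of these data known, and no list was tested as a set. Named list genes are up to 5 called in each direction, or the 2 with the smallest p where none was called, besides markers and other list genes picked for their role after values were seen. Samples were grouped by their labels, and precision is limited by having 6 arrays. Each p-value sets a group difference against the spread within groups, which limma estimates with the help of all genes. With 1 array per mouse, the spread between mice and that between arrays cannot be told apart. Alternatives were quantile normalization, median centring, a filter that left out the 30% of probe sets with the lowest mean, the trend and robust options, weights for arrays, a block for the replicate number, leaving out each array, the methods' t-test, all probe sets, and a fold of 1.5 with the unadjusted p of limma or, chosen after seeing the data, of the methods' t-test as in the study's rule.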

Additional observations from a re-analysis of the deposited data

How the results depend on the processing

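Lcn2 was called in all 6 fits without 1 array and in 9 of 10 other settings, the exception being the methods' t-test after adjustment. Lpo was called in 2 of 6 and 8 of 10, and Bpifa2 in 1 of 6 and 4 of 10. The number of members higher was 2 without the dimmest 30%, with array weights, with the replicate block and by a fold of 1.5 with limma's unadjusted p, always through Bpifa2, which did not pass the study's rule with its t-test p (chosen after seeing the data), and 0 by the methods' t-test. The number lower was 0 with the replicate block and by the methods' t-test. Leaving out 1 array gave 1 to 2 higher and 0 to 1 lower members, and 382 to 561 called genes in all. All genes called numbered 1104 with trend and robust options and 79 by the methods' t-test, against 709. The uncalled change of Pigr turned to −0.046 with quantile normalization and ran from −0.15 to 0.15 without 1 array. Calls in the antiprotease list numbered 5 without the dimmest 30% and with trend and robust options and 4 with array weights, against 2, and those in the inducer list 7 with trend and robust options, against 4. By the methods' t-test the antiprotease, antimicrobial and inducer lists held 1 call each and the peroxidase and BPI lists 0. The cause of these shifts was not tested. Same-numbered OVX and Cont arrays share only a number, with correlations of their deviations of 0.07, 0.01 and −0.04. With the replicate block 630 genes were called, Lpo had a limma adjusted p of 0.0547 and Bpifa2 one of 0.0322, and the Lcn2 minus Ltf difference kept its value of 3.32 (exact sign-flip p = 0.25, the smallest possible). The differences between Duox1 and Duox2 and between Slpi and Wfdc2 were not run, since Duox2 and Slpi had no named probe set, and Duox1 and Ltf fell under the filter on dim probe sets.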
